A study of Mus musculus with 2 samples.

Results

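Conventional dendritic cells that lack Cd209a made up 131 of 12407 cardiac leukocytes that passed quality limits: 89 of 6992 in the control library and 42 of 5415 in the LOY library. They were chosen from the single-cell counts themselves. A cell was a member when Clec9a, Xcr1 and Flt3 together had at least 2 UMIs (unique molecular identifiers, each a tagged transcript), Cd209a had 0, the B cell genes Cd79a and Cd79b and the T cell genes Cd3e and Cd3d had 0, and C1qa, C1qb and C1qc took under 0.3% of its UMIs. The levels of these 11 genes therefore describe the choice and are not a finding.

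The cells were viable CD45+ RFP+ leukocytes sorted from left ventricles of mice that had received a bone marrow transplant and had undergone TAC, transverse aortic constriction, an operation that loads the heart with pressure. The control group carried marrow labelled control and the LOY group marrow labelled LOY, loss of the Y chromosome. Both groups share the transplant, the RFP sort and the TAC operation, and how the Y chromosome was lost, the strain, the age and the time after TAC are not given in the sources used here. Each group was 1 library made from 3 mice pooled after the sort, so there is no spread between animals, no test of control against LOY is possible, and every interval below covers counting error only (95%).

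Dendritic cells take up antigen, move to lymph nodes and present it to T cells. The type 1 conventional dendritic cell (cDC1) depends on the transcription factors IRF8 and BATF3. It senses dead cells through CLEC9A, is drawn to XCL1-secreting lymphocytes through XCR1, and is known for loading antigen from dead cells onto MHC class I for CD8 T cells. FLT3 is the growth factor receptor on which conventional dendritic cells depend. When they mature, dendritic cells of either type switch on CCR7, the receptor that guides them to lymph nodes, together with a shared set of cytoskeletal, chemokine and co-stimulatory genes.

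Members were deeper than most cells. Their median was 11744 UMIs in the control library and 5045.5 in the LOY library, against 5233 and 3040 UMIs over all kept cells. In all they held 1085313 UMIs in control and 225163 in LOY, so a gene at 0 in the LOY members could still be present at up to 13.3 CPM (UMIs of a gene scaled to the same total in every group of cells), against 2.76 CPM in control. The libraries shared 31 barcodes, of which 0 belonged to members. The RFP sequence in the gene list had 0 UMIs in either library.

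Members were 1.27% of kept control cells (1.02% to 1.56%) and 0.776% of kept LOY cells (0.560% to 1.05%). This order did not hold at equal depth. When every kept cell with at least 2000 UMIs was first thinned to 2000 UMIs, 34 of 6321 control cells (0.538%) and 29 of 4260 LOY cells (0.681%) met the rule. These are few cells, no interval was computed for the thinned shares, and their order is not established. The 2000-UMI minimum also left out cells unequally, from 6992 kept cells in control and 5415 in LOY. A share of the sorted cells is not a number of cells per heart. Cells on either side of the marker minimum were as follows. In control, 82 members had 3 or more marker UMIs, 7 had exactly 2, and 17 cells just outside had 1. In LOY these counts were 36, 6 and 22. The 17 control cells just outside carried 1747 CPM of a list of 18 cDC1 genes and 16875 CPM of a macrophage list, whereas the 22 LOY cells just outside carried 4621 and 1601 CPM. The 2-UMI members carried 4057 CPM of the cDC1 list in control and 6691 in LOY, below the 8795 and 8634 CPM of members with 3 or more.

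The limits on other genes also removed cells that carried cDC1 receptors. Of 125 control cells with at least 2 marker UMIs, 24 were at or over the C1q limit, 8 had Cd209a, 9 had a Cd79 UMI and 7 a Cd3 UMI, with some cells counted more than once. Of 46 such LOY cells, 4 were at or over the C1q limit and 0 had any of the others. Among the cells left out, 27 in control and 4 in LOY had 2 or more UMIs of Clec9a and Xcr1 in sum. Cd209a alone removed 5 control cells and 0 LOY cells.

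The 3 genes that chose the members were unequally seen among them. Clec9a, located at chr6:129408862-129424763 (mm10), was seen in 76 of 89 control and 29 of 42 LOY members, at 252 CPM (223 to 284) and 266 CPM. Xcr1, at chr9:123852315-123862029, was seen in 75 and 38 members, at 351 and 564 CPM. Flt3, at chr5:147330741-147400489, was seen in 68 and 15 members, at 147 and 84.4 CPM. All 3 genes were seen together in 52 control and 6 LOY members. After thinning each member to 1000 UMIs the shares were 24.7% and 19.0% for Clec9a, 23.6% and 50% for Xcr1, and 10.1% and 2.38% for Flt3. Among cells with at least 2 Cd79 UMIs, B cells that should lack these genes, 1.21% had a Clec9a UMI in control and 0.345% in LOY. Their median depths were 2265 and 944 UMIs. The parts of free RNA and of doublets, which were kept, in these shares were not tested. Flt3 also marks progenitors and other dendritic cells, and 6 control and 0 LOY members had entered on it without Clec9a or Xcr1.

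Other cDC1 genes, which the rule did not use, were high in the same cells. The 18-gene cDC1 list summed to 8463 CPM in control members and 8367 in LOY members, against 1030 and 958 CPM in all other kept cells. Of the 14 listed genes with at least 20 member UMIs in each library, 14 were 1.5-fold or more higher in members in both libraries. Over all genes with that many UMIs, 249 of 1301 (19.1%) were. The median log2 ratio of those 14, taking the lower library of each, was 3.03. The list is made of known cDC1 genes and the members were picked on cDC1 receptors, so its direction was largely set by the choice.

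Irf8, the lineage factor of cDC1 (chr8:120736358-120756694), reached 2123 CPM in control members and 2110 in LOY members, and was seen in 87 of 89 and 42 of 42. In all other kept cells it was at 241 and 209 CPM. Batf3, its partner, was less exclusive, at 194 and 280 CPM in members and 82.5 and 40.7 CPM elsewhere. Id2, which represses the alternative plasmacytoid fate, was at 1067 and 1088 CPM, and Naaa, a lysosomal amidase used as a cDC1 marker, at 1349 and 795 CPM against 123 and 51.4 CPM elsewhere. Wdfy4, needed for cross-presentation of cell-bound antigen, was at 487 and 462 CPM in members and at 40.6 and 35.6 CPM elsewhere. Tlr3, a sensor of double-stranded RNA, was at 197 and 218 CPM, and Tlr11, a sensor of protozoan profilin, was low at 27.6 and 48.9 CPM. Cd8a, which marks cDC1 of lymphoid organs, had 7 UMIs in 5 control members and 0 in LOY, whereas Itgae, the CD103 subunit of cDC1 in peripheral tissues, was seen in 69 and 22 members at 178 CPM in both libraries.

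Among genes ranked by the lower of the libraries' ratios, Sept3, a septin, stood first, at 209 CPM in control members and 306 in LOY members against 1.32 and 1.57 CPM in other kept cells. Itgae, Cd24a, Ifi205 and Jaml followed. Others among the 25 genes with the highest ratios were Naaa, Wdfy4, Irf8, Btla, Tlr3, Sept6, Ece1, Snx22, Cst3, Tnni2, Bri3bp, Trim35, Id2, Cbfa2t3, Plekha5, Napsa, Ppt1 and Ryr1. Cst3, the cysteine protease inhibitor cystatin C, was the most abundant of these at 28259 and 32670 CPM, and was seen in all 131 members. Members of every marker in the plot lie to the right of other kept cells in both libraries, as the ranking requires.

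**Figure D1:**
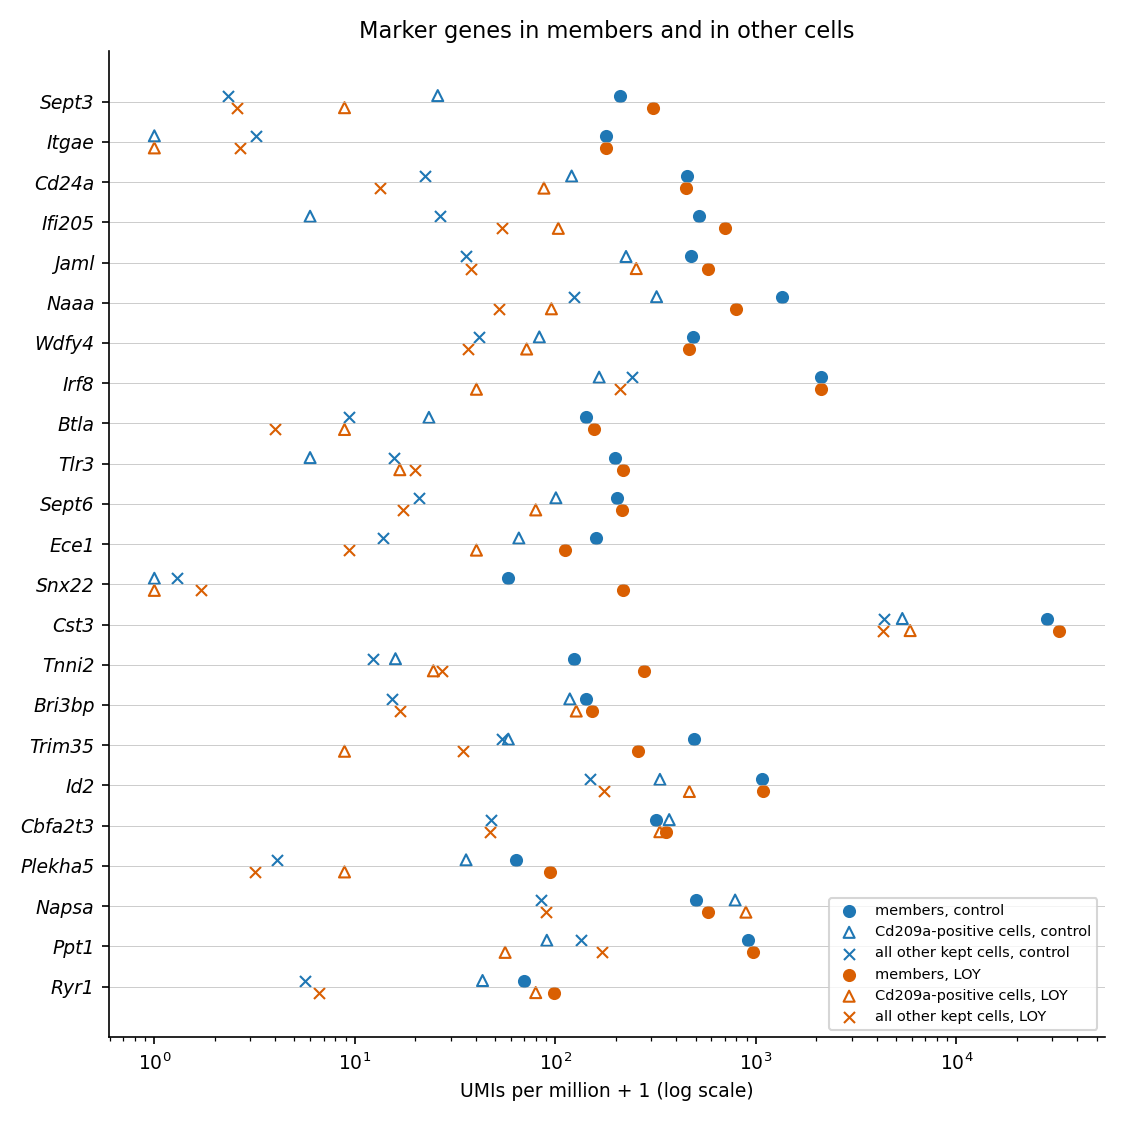
CPM plus 1 on a log scale for 23 of the 25 genes with the highest ratio of members over other kept cells, as filled circles for members, triangles for Cd209a-positive cells and crosses for all other kept cells, in blue for control and orange for LOY. Cbfa2t3 has triangles close to the circles and Napsa has triangles to the right of them, whereas Itgae and Snx22 have triangles at 0 CPM.

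Cd209a-positive cells, 49 in control and 37 in LOY under the same limits on B cell, T cell and C1q genes, express the lectin that the rule excluded, and they separate markers of members from genes that both kinds of cell share. Itgae had 0 UMIs in them in either library, and so did Snx22, which allows up to 7.47 CPM in control and 23.6 CPM in LOY. Irf8 was at 164 and 39.4 CPM, Rab7b at 14.9 and 15.8 against 314 and 360 CPM in members, and Cadm1, a cDC1 adhesion molecule, at 0 against 210 and 107 CPM. Cxcl9, a chemokine for CXCR3-bearing T cells, was at 156 and 124 CPM in members and 12.5 and 0 CPM in Cd209a-positive cells. By contrast Cbfa2t3 was as high in Cd209a-positive cells, at 369 and 331 CPM against 315 and 355 in members, and Napsa was higher there, at 787 and 890 CPM against 504 and 573.

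Genes of type 2 dendritic cells (cDC2) were low in members. A list of 12 summed to 212 and 142 CPM, against 3840 and 2734 CPM in Cd209a-positive cells. All other kept cells were at 3106 and 1922 CPM, so the list does not single out cDC2 among these cells. In control, members with a Ccr7 UMI were at 826 CPM, and those with Clec9a or Xcr1 and no Ccr7 at 141 CPM. Clec10a, a lectin of cDC2, had 4 UMIs over all control members and 1 over all LOY members, and Mgl2, a relative of it, the same counts. The chemokine Ccl9 had 7 and 0 UMIs, at 6.45 CPM in control members against 481 CPM in Cd209a-positive cells. Tmem176b (35.0 and 13.3 CPM against 874 and 709), S100a4 (101 and 31.1 against 1843 and 3301) and Capg (4.61 and 0 against 204 and 173) had the same order in both libraries. Klf4, a listed transcription factor, was at 108 and 84.4 CPM in members.

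Interferon regulatory factors bind a doubled GAAA core, so the region around the start of each marker and rule gene was searched. RefSeq windows (GRCm38.p6, 250 bases before to 50 after a start site) were matched for 19 of 28 genes and gave 25 windows. The interferon-response core, GAAA followed by any 2 bases and GAAA on either strand, was found in 3 of 25 windows (12%) against 3.44% of all 32851 windows. A composite ETS-IRF motif, which differs from it only in starting with GGAA, was in 0 of 25 (2.72% of all windows), and the AP-1 motif TGANTCA was in 0 of 25 (7.81%). The windows of Ece1, Ifi205 and Jaml held the core. Ifi205 and Jaml are shown because they are among the 5 leading markers, with the core in capitals, at 125 to 134 bases before and 23 to 32 bases after the start in Ifi205 (chr1:174031706-174032005, minus strand) and 27 to 36 bases before it in Jaml (chr9:45078933-45079232, plus strand). A match is a description of these letters and not evidence of binding.
Ifi205: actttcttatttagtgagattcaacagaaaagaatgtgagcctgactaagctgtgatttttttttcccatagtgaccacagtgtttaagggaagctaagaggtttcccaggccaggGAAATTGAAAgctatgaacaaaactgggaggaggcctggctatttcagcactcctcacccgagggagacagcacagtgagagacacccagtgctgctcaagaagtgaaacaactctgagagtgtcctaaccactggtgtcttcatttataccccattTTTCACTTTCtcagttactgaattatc
Jaml: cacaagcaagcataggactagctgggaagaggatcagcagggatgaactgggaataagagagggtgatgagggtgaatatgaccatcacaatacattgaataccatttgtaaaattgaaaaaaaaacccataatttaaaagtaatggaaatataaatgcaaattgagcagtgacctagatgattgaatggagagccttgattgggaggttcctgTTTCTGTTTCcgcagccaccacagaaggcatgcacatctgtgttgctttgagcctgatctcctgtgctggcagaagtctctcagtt

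Marker lists of other cell types were lower in members than in other kept cells, by very different factors, with 1 exception in control. The mast, basophil and progenitor list was low throughout, at 12.0 and 4.44 CPM in members against 11.5 and 6.52 in other kept cells. The macrophage list was at 1084 CPM in control and 604 in LOY members against 37483 and 49518 CPM in other kept cells, with Mertk and Lyve1 at 0 in both. The B cell list was at 150 and 218 CPM against 1541 and 1118, with Pax5 at 0 in both. The T cell list was at 21.2 and 4.44 CPM against 176 and 80.9, with Cd3g and Trac at 0. The neutrophil list was at 184 and 4.44 CPM against 1758 and 915, and 94.0% of its control UMIs came from 1 cell. The plasmacytoid and monocyte lists were nearer to the other cells. The plasmacytoid list was at 556 and 608 CPM in members against 1078 and 1006, and the monocyte list at 652 and 751 against 1573 and 1797. Some of their genes were higher in members in both libraries. Siglech, a plasmacytoid lectin, was at 29.5 and 35.5 CPM against 3.34 and 3.20, and 1 cell gave 84.4% of its control and 1 cell 87.5% of its LOY UMIs. Pacsin1 was at 23 and 17.8 CPM against 1.90 and 1.03, in 16 control and 4 LOY members, and Ccr9, a gut-homing receptor, at 20.3 and 13.3 against 1.15 and 0.977. The LOY level of Ccr9 is that of 3 UMIs, all in 1 member high in the plasmacytoid list. In control, 1 such member held 7 Ccr9 UMIs and 1 member with Flt3 only held 9. Plac8, of the monocyte list, was at 417 and 444 CPM against 268 and 137, in 39 of 89 and 32 of 42 members. The part of other cell types in these levels was not tested.

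A few members did not look like cDC1. In 6 of 131, 1 list of another cell type had more UMIs than the cDC1 list, a count taken after the values were seen. In 2 of them, 1 per library, the plasmacytoid list stood at 22292 CPM (control) and 13963 CPM (LOY), with 27 and 7 UMIs of Siglech, and both had entered on 5 and 4 Clec9a UMIs alone. A control member with 332 Lyz2 and 24 Ly6c2 UMIs had entered on 2 Flt3 UMIs. Another control member, with 3 Flt3 UMIs, had 3 Cst3 UMIs, 9 Ccr9 UMIs and 0 of the cDC1 list. The other 2 had a Ccr7 UMI and are described with that state. Without these 6 cells the counts were 84 and 41.

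By state, 79 of 89 control members (88.8%, 80.3% to 94.5%) and 41 of 42 LOY members (97.6%, 87.4% to 99.9%) had Clec9a or Xcr1 and no Ccr7. Members with a Ccr7 UMI numbered 7 of 89 in control (7.87%, 3.22% to 15.5%) and 1 of 42 in LOY (2.38%, 0.0603% to 12.6%), so the intervals overlap. The remaining 3 control members had Flt3 only. One Flt3-only cell had 46 Naaa, 28 Irf8 and 6 Mki67 UMIs, and the other 2 are those with Lyz2 or Ccr9 above.

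The Ccr7-positive members were not alike. Ccr7, at chr11:99144196-99155077, had 37, 30, 16, 14, 13, 9 and 1 UMIs in the 7 control cells and 1 UMI in the LOY cell. In the 6 control cells with 9 or more, a list of 28 Ccr7-state genes took from 8110 to 23516 CPM, whereas the cells with 1 Ccr7 UMI had 1104 CPM (control) and 2600 CPM (LOY). The highest of the Clec9a- or Xcr1-positive members reached 6134 CPM, below all 6. The LOY cell had 7 Xcr1, 2 Clec9a and 6 Irf8 UMIs and 0 of Fscn1, Il12b and Il4i1. The control cell with 1 Ccr7 UMI had 425 CPM of the cDC1 list, 6201 CPM of the monocyte list and 52 Plac8 UMIs. Counted as Ccr7 plus Fscn1 of 2 or more UMIs, the state held 6 control and 0 LOY members.

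**Figure D2:**
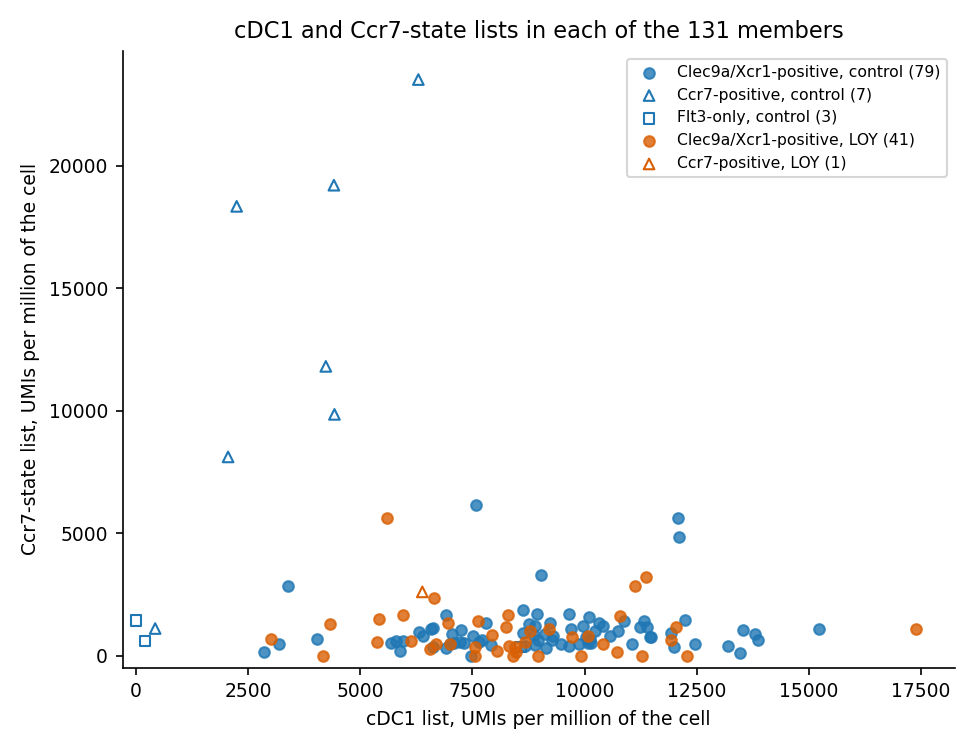
The cDC1 list (x axis) against the Ccr7-state list (y axis), in CPM of each of the 131 members, in blue for control and orange for LOY, with filled circles for Clec9a- or Xcr1-positive, triangles for Ccr7-positive and squares for Flt3-only cells. In the upper left, 6 control triangles lie between 8110 and 23516 CPM of the Ccr7-state list, and every circle lies at or below 6134.

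What those 6 cells shared went beyond Ccr7. Traf1, a TNF receptor adaptor, had from 12 to 34 UMIs in each, Serpinb6b from 13 to 48, and Tbc1d4 from 4 to 30. Relb, the non-canonical NF-kB subunit, had 5 to 18. Fscn1, the actin-bundling protein of mature dendritic cells, was in 3 of the 6, with 17, 4 and 38 UMIs, and had 0 in the other members of either library. Il12b, which codes for the p40 chain of interleukin-12, was in 4 of them, with 26, 17, 24 and 24 UMIs, and had 3 UMIs over all members without Ccr7. Il4i1, an enzyme that breaks down phenylalanine and tryptophan, was in 5, and Ccl22, a chemokine that attracts CCR4-bearing T cells, in 6.

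The 6 cells could be told apart by their other genes. Cells with 37, 30 and 13 Ccr7 UMIs had Fscn1, Il12b, Il4i1 and Ccl5 together. Those with 37 and 13 had 0 Clec9a and 0 Xcr1 UMIs and had entered on Flt3, whereas the cell with 30 had 2 UMIs each of Clec9a and Xcr1. The cell with 16 Ccr7 UMIs had 18 Ccl22 UMIs and 0 of Fscn1, Il12b and Ccl5, with 1 Irf8 UMI. The cell with 14 had 4 Xcr1 UMIs, 16 Ccl5 and 0 of Il12b, Il4i1 and Irf8. Irf8 had 14 to 50 UMIs in the other 4. Naaa, seen in 79 of 89 control members, was at 0 in 5 of the 6 cells and had 1 UMI in the other.

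**Figure D3:**
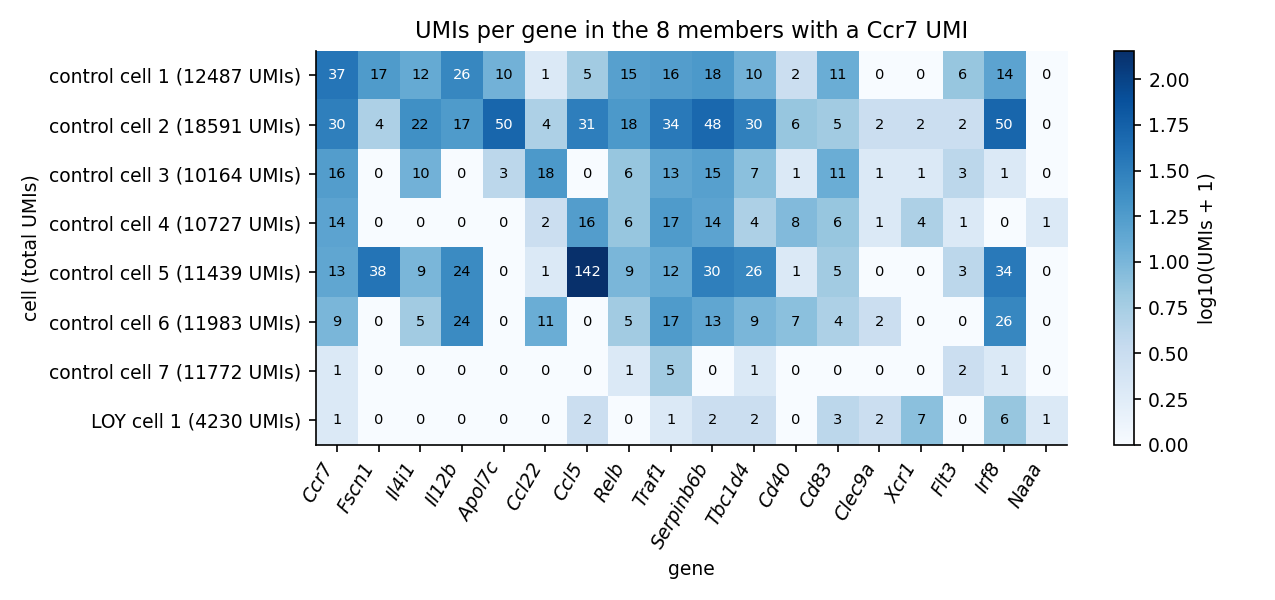
UMIs of 18 genes (columns) in the 8 members with a Ccr7 UMI (rows, with each cell's total UMIs), shaded by log10(UMIs + 1). The 6 upper rows hold 12 to 34 Traf1 UMIs each, and the 2 lower rows 5 and 1.

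Set against all other members, the Ccr7-positive cells differed in these genes by large factors that rest on few cells. Ccl5, a chemokine that attracts T cells and monocytes, was at 2145 CPM against 10.7 CPM, and 1 cell gave 72.4% of its UMIs. Il12b was at 996 CPM against 2.46. Apol7c, which takes part in the escape of antigen from phagosomes, had 63 UMIs in 3 cells and 0 elsewhere, which makes it at least 280-fold higher against a floor of 3 UMIs over the other members. Gadd45b, a stress response gene, was in 6 cells at 1849 against 52.5 CPM, and Serpinb9, an inhibitor of granzyme B, in 6 at 678 against 17.2 CPM. Cd63, Arl5c and Zmynd15 were also among the 15 genes with the highest ratio. The S100a9 and S100a8 UMIs of the state came from 1 control cell, the one with 30 Ccr7 UMIs, which had 114 S100a9 UMIs, 10112 CPM of the neutrophil list and 18591 UMIs in total. With the cells of the highest doublet scores left out, the LOY to control log2 ratio of S100a9 was -3.71, and without the 6 members led by another list it was -0.66.

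Dividing cells formed the other visible subset. With 2 or more UMIs of 6 mitotic genes (Mki67, Top2a, Birc5, Ube2c, Cdk1 and Ccnb2), a cut chosen after the values were seen, 28 of 89 control members (31.5%, 22.0% to 42.2%) and 5 of 42 LOY members (11.9%, 3.98% to 25.6%) were counted. Depth differs between the libraries. After thinning to 1000 UMIs, 18 of 89 (20.2%, 12.4% to 30.1%) and 5 of 42 (11.9%, 3.98% to 25.6%) had at least 1 mitotic UMI, so that the intervals overlap. In Cd209a-positive cells it was 2 of 49 and 3 of 37 after thinning, and in other kept cells 3.80% and 10.5%. After thinning, the control interval of members lay above that of the other control cells (12.4% to 30.1% against 3.36% to 4.28%). The LOY share was not distinguishable from that of the other LOY cells (9.65% to 11.4%). Each interval covers counting error within 1 pooled library. Members were chosen at full depth, before thinning, and dividing control members had a median of 15266 UMIs against 11067 in the others. The part of that choice in the control share was not tested.

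cDC1 genes outside the rule differed little to moderately between dividing and other control members. Irf8 was at 2212 CPM in dividing and 2068 in other members (ratio 1.07, 0.983 to 1.16), and Naaa at 1495 and 1259 (1.19, 1.07 to 1.32). Itgae was lower in dividing members, at 140 against 201 CPM (0.696, 0.503 to 0.954). H2-Aa, an MHC class II chain, was at 9326 and 9541 CPM. Kit, the stem cell factor receptor, was 2.09-fold higher in dividing control members (1.28 to 3.46), at 96.6 against 46.2 CPM. Il1b, which codes for interleukin-1 beta, was 0.187-fold as high (0.132 to 0.260), at 96.6 against 515 CPM, and Cxcl9 0.350-fold (0.228 to 0.522). In LOY, with 5 dividing cells, Irf8 was 0.756-fold as high in them (0.570 to 0.987), and Kit had 3 UMIs and Il1b 1 UMI, too few to compare. The cell cycle list of 16 genes stood at 3405 CPM in control and 2420 CPM in LOY members (ratio 0.711, 0.648 to 0.778), whereas in other kept cells it was 1.66-fold higher in LOY (1.64 to 1.68). Hist1h1b, Top2a, Pclaf, Lig1, Kif23, Cenpf, Timeless and Nusap1 were among the 15 genes with the highest ratio of Clec9a- or Xcr1-positive members over the other members.

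MHC class II genes were at nearly the same level in members of both libraries, while those of the other kept cells differed. A list of 10 MHC class II genes summed to 52806 CPM in control and 52065 in LOY members, a LOY to control ratio of 0.986 (0.966 to 1.01). In other kept cells it was 43235 and 13715 CPM, a ratio of 0.317 (0.316 to 0.319). In Cd209a-positive cells it was 68361 and 52673 CPM. Single genes differed more than the sum: H2-Aa was at 9459 and 6391 CPM (ratio 0.676, 0.639 to 0.714), and Cd74, the invariant chain, at 22100 and 26283 CPM (1.19, 1.16 to 1.22). H2-Oa and H2-Ob, which temper peptide loading, were at 124 and 149 CPM in control members, 151 and 75.5 CPM in LOY members, and 15.5 and 30.2 CPM in other control cells.

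The class I and cross-presentation list of 17 genes was at 10505 and 8310 CPM in members and 11866 and 8094 CPM in other kept cells, but its parts went different ways. Of the surface chains, H2-K1, H2-D1 and B2m were lower in members than in other kept cells in both libraries, with B2m at 1635 and 759 CPM against 2837 and 1630, and H2-D1 at 1774 and 831 against 3335 and 1560. H2-Q7 (308 and 249 against 351 and 237 CPM) and H2-T23 (233 and 133 against 297 and 103) were lower in control members and higher in LOY members than in other cells of the same library. The immunoproteasome subunits Psmb8 (1741 and 2065 against 720 and 642 CPM) and Psmb9 (1009 and 546 against 269 and 139), and the peptide transporter Tap1 (264 and 289 against 117 and 121), were higher, whereas the subunit Psmb10 was at 210 and 275 against 218 and 302 CPM. Of the 14 listed genes with at least 20 member UMIs in each library, 4 were 1.5-fold or more higher and 3 lower in both. Over all genes with that many UMIs, 249 of 1301 (19.1%) were higher in both, so the 4 are too few to set the list apart. The share of all genes lower in both was not computed.

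For LOY against control within members, 7062 genes reached 10 CPM in either library, and their median log2 ratio was -0.08. Of these 967 (13.7%) were 1.5-fold or more higher in LOY and 1577 (22.3%) lower. At 50 CPM or more the counts were 401 and 521 of 2684, with a median of -0.01. Log2 ratios and counts past 1.5-fold use log2((LOY CPM + 10)/(control CPM + 10)), which understates low genes. Ratios and folds of single genes and of list sums are of CPM without the added 10. Counts of each list below are to be read against the 13.7% and 22.3%. Fewer cells of a kind and less RNA per cell cannot be told apart in such sums.

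The cDC1 list had a ratio of 0.989 in sum (0.940 to 1.04), and of 17 measured genes 2 were 1.5-fold higher and 3 lower. Among its genes Snx22, a sorting nexin, was at 57.1 and 218 CPM (ratio 3.81, 2.56 to 5.63), and Naaa at 0.589 of control (0.502 to 0.689). Naaa was lower in the other LOY cells too, at 0.418 (0.389 to 0.448). Xcr1 was 1.61-fold higher (1.30 to 1.97) and Flt3 0.576-fold (0.338 to 0.930), but both were used to choose the members.

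**Figure D4:**
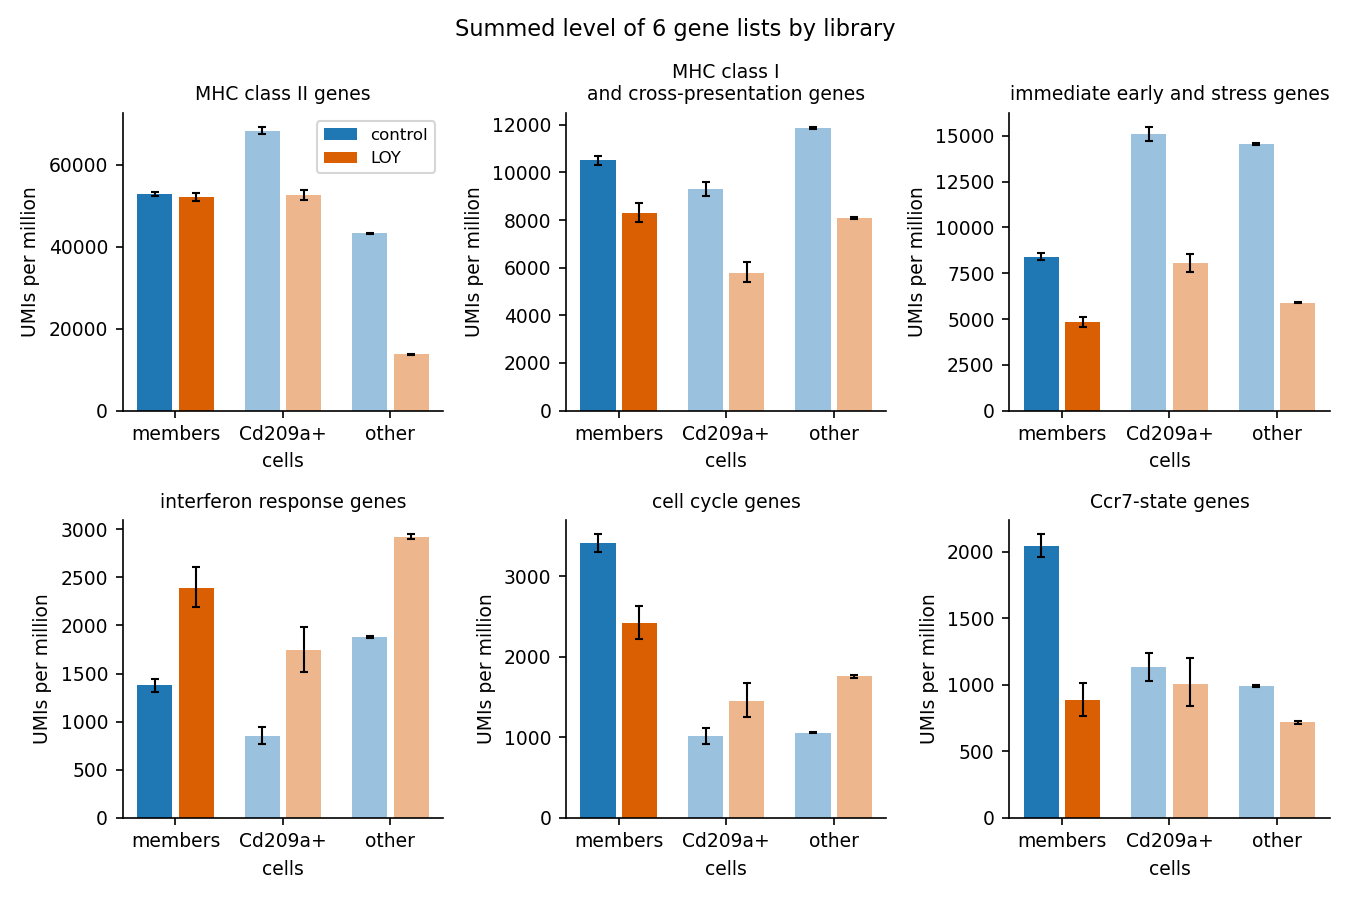
Summed level of 6 gene lists in CPM (bars from 0, exact 95% Poisson intervals) for members (dark), Cd209a-positive cells and all other kept cells (light), in blue for control and orange for LOY. MHC class II bars of members stand at 52806 and 52065 CPM, whereas those of other cells stand at 43235 and 13715.

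Immediate early and stress genes were lower in LOY members. The list of 18, transcription factors and feedback genes that respond within minutes to stimulation or to tissue dissociation, summed to 8412 CPM in control and 4823 in LOY, and 14 of 18 were 1.5-fold or more lower, against the 22.3% of all genes, with a median log2 ratio of -0.87. Btg2, an antiproliferative gene, was in 88 of 89 control and 22 of 42 LOY members, at 1148 and 209 CPM (ratio 0.182, 0.133 to 0.243). Klf2 was at 372 and 151 CPM, Zfp36, which destabilises cytokine mRNA, at 414 and 133, and Fos at 1299 and 1093. Other kept cells had the same direction for 18 of the 18 genes, at 14559 and 5891 CPM in sum, a ratio of 0.405 (0.402 to 0.407) against 0.573 (0.538 to 0.611) in members. Median mitochondrial content of members was 3.09% and 1.54% of UMIs, and its part in the result was not tested.

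Interferon response genes were higher in LOY members in sum, at 2394 against 1376 CPM (ratio 1.74, 1.57 to 1.92), with 6 of 14 genes 1.5-fold or more higher and 1 lower, and a median log2 ratio of 0.11. Per cell the median was 1503 CPM in LOY and 383 in control. The cells overlapped widely, and the highest control cell held 16.8% and the highest LOY cell 19.9% of its library's UMIs of the list. Irf7, which amplifies interferon production, was in 52 of 89 and 30 of 42 members at 236 and 617 CPM (2.62, 2.11 to 3.23), and Isg15, a ubiquitin-like protein, at 402 and 680 CPM (1.69, 1.40 to 2.04). In other kept cells the list was also higher in LOY, 1.56-fold (1.54 to 1.57), with Irf7 at 2.21-fold, and 10 of the 14 genes were on the same side there. Ifitm3, an antiviral membrane protein outside that list, was at 620 and 2039 CPM (3.29, 2.91 to 3.71), against 2.04-fold in other kept cells.

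**Figure D5:**
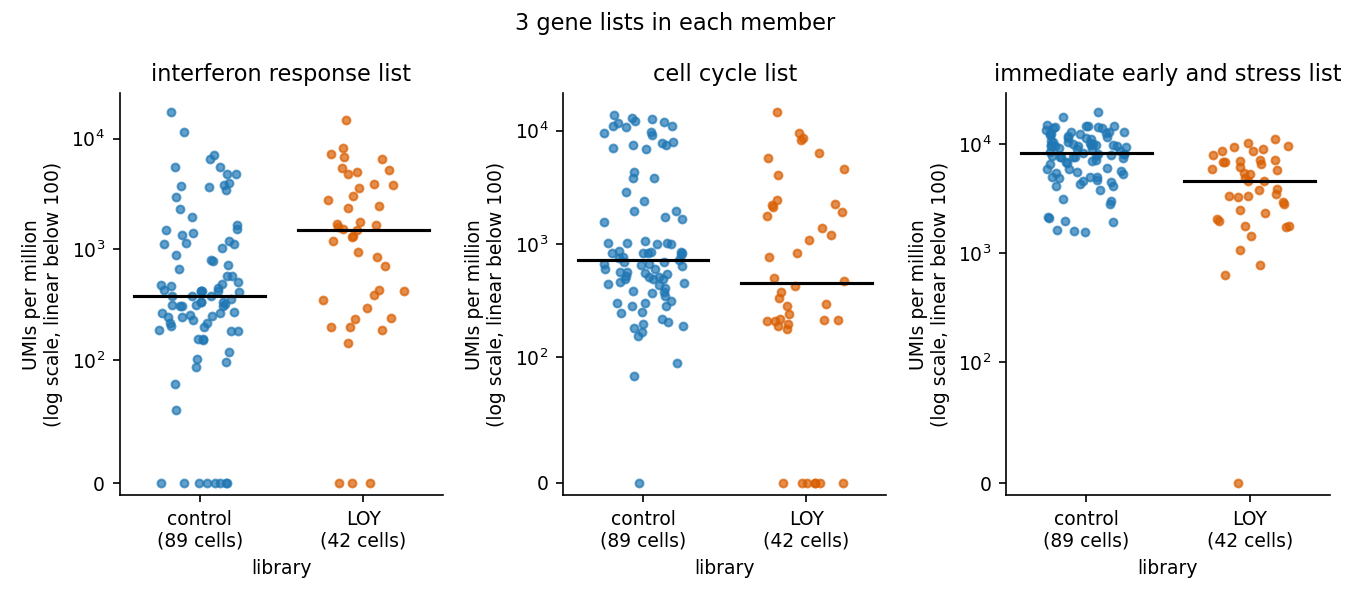
The interferon response, cell cycle and immediate early lists in CPM of each member (points, log scale that is linear below 100) by library, with the median over cells as a line. The interferon medians are 383 CPM in control and 1503 in LOY, and the immediate early medians 8280 and 4628.

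Of the 10 genes with the highest LOY to control ratio in members, 9 were on the same side in other kept cells, 7 of them by 1.5-fold or more. For the 10 with the lowest ratio these counts were 7 and 3. The share of all genes on the same side was not computed. These counts, and those of the immediate early and interferon lists, therefore have no background to be read against. Ly6a, which codes for Sca-1, was in 24 of 89 and 21 of 42 members at 103 and 560 CPM (5.42-fold, 4.17 to 7.06), and 3.71-fold higher in other LOY cells. Atp5j2, a subunit of ATP synthase, was at 223 and 688 CPM (3.09-fold, 2.51 to 3.79), against 2.42-fold elsewhere, and Polr2i and Tufm also had ratios above 2 in both. Ccl3, a chemokine for monocytes and T cells, had 4 UMIs in 1 control member and 21 in 4 LOY members, and was at 0.957 in other cells. Single cells carried 2 of the rest: 1 LOY cell gave 81.2% of the Rsad2 UMIs and 1 gave 97.7% of those of Cxcl10. Without the dividing members, Rsad2 had a log2 ratio of 0.03 and Cxcl10 turned to -1.32. Hist1h3e and Hist1h2ap, with opposite directions, belong to a family of near-identical histone genes and their counts are uncertain.

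Of the 10 lowest, 6 were genes of the Ccr7-positive state, which held 6 strongly positive control cells and 0 LOY cells. Ccr7 was at 111 and 4.44 CPM, Ccl5 at 191 and 8.88, Il12b at 86.6 and 0, Apol7c at 58.0 and 0, and Fscn1 and Il4i1 each at 54.4 and 0. Among Clec9a- or Xcr1-positive members only, Fscn1 and Apol7c had 0 UMIs in both libraries and could not be compared. Il12b had a log2 ratio of -0.39 there, which rests on at most 3 UMIs. The Ccr7-state list summed to 2044 and 884 CPM (ratio 0.432, 0.372 to 0.500). Of 25 measured genes, 18 were 1.5-fold or more lower, against 22.3% of all genes. That interval counts UMIs and not cells, and 1193 of the 2218 control UMIs came from the 7 Ccr7-positive cells. Among Clec9a- or Xcr1-positive members the list was at 1039 CPM in control and 851 CPM in LOY. S100a9 had 94.2% of its UMIs in the control cell named above, and without the members led by another list Apol7c had a log2 ratio of -1.18. Ctla2a had 84.7% of its 59 UMIs in 1 control cell and a log2 ratio of -0.14 without the cells of the highest doublet scores.

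Ffar4 differed from these. This receptor for long-chain fatty acids was spread over 45 of 89 control members, with at most 7 UMIs in a cell, and was in 1 of 42 LOY members. It stood at 91.2 and 4.44 CPM, so that the LOY level was 4.87% of control (0.122% to 27.8%). After thinning to 1000 UMIs the shares were 11.2% and 0%. In other kept cells it was at 0.855 and 0.597 CPM, near 0 in both libraries, so its LOY to control ratio there (0.699, 0.320 to 1.41) rests on few UMIs.

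Of 18 listed chemokines and cytokines, 12 were measured in members, with 2 at 1.5-fold or more higher in LOY and 7 lower. Il1b was at 356 and 107 CPM (0.30, 0.190 to 0.453) and was 0.367 of control in other cells too. Tnf had 34 UMIs in 14 control members and 0 in LOY. Cxcl16 was at 285 and 173 CPM, Ccl4 at 202 and 240 and Cxcl9 at 156 and 124. Il10 and Il12a, the second chain of interleukin-12, had 0 UMIs in members of either library. Of the receptors, Ccr2 was at 242 and 244 CPM, and Csf2ra, a chain of the GM-CSF receptor, at 197 and 284. A list of 13 TGF-beta genes was at 541 and 600 CPM (ratio 1.11, 0.912 to 1.34), with 1 of 9 measured genes 1.5-fold higher, Tgfb1 itself at 133 and 213 CPM, and 1 lower.

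The Y-linked genes check the labels. Of 4 such genes, 153 UMIs (141 CPM) were found in 61 of 89 control members and 4 UMIs (17.8 CPM) in 3 of 42 LOY members. The LOY level was 12.6% of control (3.39% to 32.9%), against 11.2% (9.83% to 12.7%) in other kept cells. After thinning, 14.6% of control members (8.01% to 23.7%) and 0 of 42 LOY members had a Y-linked UMI, the latter allowing a share of up to 8.41%. In the Ccr7-positive control members they were at 161 CPM (87.8 to 269).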

How the data were processed

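Per the labels' protocols, sorted CD45+ RFP+ cells of 3 pooled mice per group, about 8000 cells per library, entered a 10x Genomics 3' kit. Cell Ranger 5.0.0 and mm10 are named in the submitters' processing notes. The authors deposited 1 table of unnormalised UMI counts per library. The annotation release and the barcode filter are not given in the sources used here.

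A barcode was used if it had 500 or more UMIs, 200 or more genes and no more than 10% mitochondrial UMIs. UMIs were summed over cells per library and divided by the total (CPM), in Python 3.11.15 with numpy 2.4.6, scipy 1.17.1 and pandas 2.3.3. Sums have exact Poisson, ratios exact conditional and shares exact Clopper-Pearson intervals (95%). A single library in each group allows no test. Genes named are the top 25 markers with at least 20 UMIs in each library, the top 15 per state, the 10 highest and 10 lowest LOY to control ratios (at least 50 CPM in either library and 20 UMIs), and genes of the lists, leaving out mitochondrial, ribosomal-protein, haemoglobin, immunoglobulin, T cell receptor and, outside their list, Y-linked genes. The 15 genes that differ most each way from Cd209a-positive cells were ranked after values were seen. The members and the 23 gene lists were chosen with earlier results of these data known. Of the listed symbols, 1 had no match. Doublets were kept: scrublet (scanpy 1.11.5) marked 1.26% of control and 0% of LOY cells by its automatic threshold, and leaving out the highest scores is an alternative. The ratio script was tested on simulated data with known folds. Gene positions are from GENCODE M21 and promoter windows from RefSeq. Some genes that the rule names are not reported here.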

Additional observations from a re-analysis of the deposited data

How the results depend on the processing

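Under the alternative settings, 4 of them added after seeing the data (thinning to 2000 UMIs, a 50 CPM minimum, and leaving out the 6 members led by another list or the dividing members), 333 of 347 shares, list medians and counts moved by less than their counting interval or, for counts of genes, by less than 1.5 times. Of 340 values of single genes, 291 stayed within their counting interval or moved by less than a small fixed step in log2 ratio, 46 moved by more and 3 reversed. List medians made up 238 of the 347, and 237 of them stayed within their interval. That interval was taken from the middle gene or genes of each list and is wide. For interferon response genes it ran from -2.65 to 1.56 in log2 ratio. A median could hardly leave such an interval, so these 237 say little about robustness. Member shares moved to 0.538% in control with thinning to 2000 UMIs and to 1.18% in LOY with a marker minimum of 1 UMI. The Clec9a- or Xcr1-positive share moved to 78.3% (control) and 82.8% (LOY) with that minimum, to 41.6% and 66.7% with thinning to 1000 UMIs, and to 100% in LOY where Ccr7 and Fscn1 of 2 or more UMIs defined the Ccr7 state, which then, as after thinning, held 0% of LOY members. The cell cycle median was 1.14 without dividing members, a setting that removes the cells that carry the list. Genes 1.5-fold higher and lower numbered 217 and 333 with a pseudocount of 50 CPM, which shrinks low genes, and 401 and 521 with a 50 CPM minimum, which tests fewer. Cxcl10 turned to a log2 ratio of -1.07 with a marker minimum of 3 UMIs and -1.32 without dividing members, and Ccl5 to 1.5 with a minimum of 1 UMI, where the cause was not tested. Removing the highest scrublet scores took 8 of 89 control and 0 of 42 LOY members. No paired analysis was possible because each group is 1 library. The LOY members hold 225163 UMIs, so a gene at 0 there may lie at up to 13.3 CPM.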
